A study of Homo sapiens with 6 samples.

Results

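Genes whose products move anthracyclines out of cells or reduce them, 8 in all, were described in RNA-Seq libraries of etoposide-treated U2OS cells, a human osteosarcoma line. They were chosen by name, as 3 efflux pumps (ABCB1, ABCC1 and ABCG2), 3 carbonyl reductases (CBR1, CBR3 and AKR1C3) and 2 flavin reductases (NQO1 and POR), and are 8 of the 67140 genes listed in the count tables. The series holds 6 libraries of wild-type U2OS cells. Of these 2 came from untreated cells, 2 from cells given adriamycin at 1.5 μg/ml and 2 from cells given etoposide at 100 μM, with both drugs left on for 4 h. Etoposide and adriamycin, the anthracycline also called doxorubicin, are both topoisomerase II poisons. In the 4 untreated and adriamycin libraries the tables used here end after 220 to 292 genes, none of which is among the 8. All values below therefore come from etoposide-treated cells, and how the 8 genes differ from untreated or adriamycin-treated cells was not analysed here. U2OS is a single line with its own karyotype, and the labels do not say whether the 2 libraries came from separate cultures, so the spread between them may be technical.

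Anthracyclines enter cells largely by diffusion and are pumped out by ATP-binding cassette transporters at the plasma membrane. Inside the cell the side-chain carbonyl of doxorubicin can be reduced to an alcohol, doxorubicinol, by NADPH-dependent carbonyl and aldo-keto reductases. The quinone ring can gain a single electron from flavin enzymes such as cytochrome P450 oxidoreductase, which gives a semiquinone that reacts with oxygen. NQO1 belongs to another type of flavin enzyme that carries quinones directly to hydroquinones. Etoposide is itself a substrate of the pumps ABCB1 and ABCC1, and its catechol metabolite can be oxidized to a quinone.

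RefSeq promoter windows of build GRCh38.p14 matched 5 of the 8 genes, and CBR3, ABCC1 and POR had no entry in the table. For each matched gene the start at the 5′ end of the Ensembl canonical transcript was taken, and the 250 bases before it were searched on both strands for TGACNNNGC (the core of the antioxidant response element), GGGCGG (the GC box), CCAAT and TATAAA. The windows of the gene with the highest level, NQO1, and of 2 carbonyl reductases with very different levels, CBR1 and AKR1C3, are shown 5′ to 3′ with matches in capitals. They are chr16:69726561-69726810 on the minus strand, chr21:36069774-36070023 on the plus strand and chr10:5094164-5094413 on the plus strand.
NQO1: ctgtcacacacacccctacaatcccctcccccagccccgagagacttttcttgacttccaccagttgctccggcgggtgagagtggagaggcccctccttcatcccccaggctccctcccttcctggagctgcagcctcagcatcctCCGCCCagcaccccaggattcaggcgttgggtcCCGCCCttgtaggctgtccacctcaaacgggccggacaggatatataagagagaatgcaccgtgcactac
CBR1: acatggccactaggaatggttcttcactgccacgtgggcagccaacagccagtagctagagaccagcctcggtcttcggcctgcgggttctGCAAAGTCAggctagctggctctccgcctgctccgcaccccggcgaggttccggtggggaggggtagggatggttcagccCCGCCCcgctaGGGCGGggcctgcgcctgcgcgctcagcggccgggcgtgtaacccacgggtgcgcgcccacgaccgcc
AKR1C3: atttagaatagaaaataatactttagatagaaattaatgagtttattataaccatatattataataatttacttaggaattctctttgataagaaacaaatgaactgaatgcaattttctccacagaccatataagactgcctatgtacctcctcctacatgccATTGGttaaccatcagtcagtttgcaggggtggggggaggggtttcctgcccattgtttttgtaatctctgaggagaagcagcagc
The CBR1 window held 23 CpG dinucleotides and was 69.6% G and C, the NQO1 window held 9 and was 61.6% G and C, and the AKR1C3 window held 0 and was 35.6% G and C. Over 35114 such windows the median was 11 CpG dinucleotides. The antioxidant response element core matched once in the CBR1 window, reading in reverse from 159 to 151 bases before the start, and in 10.9% of all windows. The GC box matched 2 times in each of the CBR1 and NQO1 windows and was present in 42.6% of all windows. The AKR1C3 window had only a reversed CCAAT match, a motif present in 32.01% of windows, and the ABCB1 window had 2 CCAAT matches. The ABCG2 window, with 32 CpG dinucleotides, matched none of the 4 motifs. These matches are letters in a window and say nothing of binding. Bases farther from the start were not searched, so a gene without a match here, such as NQO1 for the antioxidant response element core, may carry the motif elsewhere.

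The etoposide libraries held 21450766 and 14244235 counts. The 8 genes took 5666 and 3922 of them, or 0.0264% and 0.0275%. Mesenchymal markers of the line were abundant, with COL1A1, SPARC and VIM above 99% of protein-coding genes, but COL1A2 had only 5 and 2 counts. Of the osteoblast markers 3 of 6 had at least 10 counts in both libraries, and SP7, BGLAP and IBSP did not. Over all protein-coding genes this share was 68.9%, which can be read beside each marker list here. The 3 were ALPL, RUNX2 and SPP1, above 59.2%, 39.7% and 32.7% of protein-coding genes. The labels give the cell type as epithelial. KRT8 and KRT18 were abundant and EPCAM was present, while KRT19 and ESRP1 had at most 1 count in either library and CDH1 had 30 and 20. None of 4 leukocyte markers reached 10 counts in both libraries. Of 4 hepatocyte markers 1 did, SERPINA1, with 2676 and 1739 counts, above 91.3% of protein-coding genes. In bulk RNA, fewer cells that express a gene and less RNA per cell cannot be told apart.

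Levels were computed per length, as counts per kilobase of annotated exon scaled to the total counts of the library (the RPKM scale), so that genes of different length could be set side by side. NQO1 was the highest of the 8 genes and POR the second, followed by ABCC1, CBR1, ABCB1, ABCG2, AKR1C3 and CBR3. Between neighbours in this order the values of the 2 libraries did not overlap in any of the 7 pairs, and each library alone gave the same order. The order was set from these same values, so this describes them and is not a test. For the last pair the lowest value of AKR1C3 was 0.238 and the highest of CBR3 0.211. CBR3 had only 1 and 3 counts, so with exon bases this pair was not resolved beyond counting error. The mean level per length of NQO1 was 113 times that of AKR1C3 with all exon bases, and 47.9 times with the longest transcript. Of the 8 genes, 7 had at least 10 counts in both libraries, a share that can be read beside 68.9% of the 19892 protein-coding genes, and CBR3 did not. Of these, 3 (NQO1, POR and ABCC1) lay above 4.75, the median level per length of the detected protein-coding genes.

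**Figure D1:**
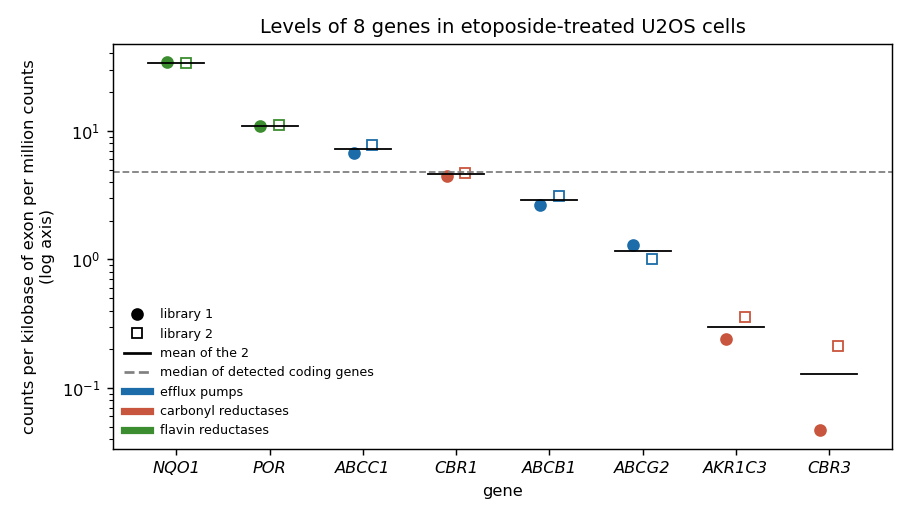
Level per length of each gene in etoposide-treated U2OS cells, with a filled circle for library 1, an open square for library 2, a black bar for their mean and a dashed line at 4.75, the median of protein-coding genes with at least 10 counts in both libraries; the vertical axis is logarithmic. NQO1, POR and ABCC1 sit above the dashed line in both libraries, and CBR3 shows the widest gap between libraries, from 1 and 3 counts.

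Among the efflux pumps, ABCC1 was the most abundant, ABCB1 was intermediate and ABCG2 was the lowest. ABCC1 (ENSG00000103222), the multidrug resistance protein that exports glutathione and glucuronide conjugates and unmodified anthracyclines, spans bases 15949138 to 16143257 of chromosome 16 (GRCh38, plus strand). It had 1267 and 969 counts, and its level per length was 6.76 in library 1 and 7.79 in library 2, with a mean of 7.27 ± 0.725 (SD, n = 2). This placed it at rank 5384 of the protein-coding genes. ABCB1 (ENSG00000085563), which encodes P-glycoprotein, the classical doxorubicin pump, spans bases 87503017 to 87713323 of chromosome 7 (minus strand). Its 366 and 286 counts gave levels per length of 2.66 and 3.13, with a mean of 2.89 ± 0.332 (SD, n = 2), at rank 8441. ABCG2 (ENSG00000118777), the breast cancer resistance protein, a transporter that works as a dimer, spans bases 88090150 to 88231628 of chromosome 4 (minus strand). Its 155 and 81 counts gave 1.29 and 1.02, with a mean of 1.15 ± 0.194 (SD, n = 2), at rank 10717.

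Both libraries put the pumps in the same order. The level per length of ABCC1 was 2.54 times that of ABCB1 in library 1 (95% interval 2.26 to 2.87) and 2.49 times in library 2 (2.18 to 2.85). Against ABCG2 it was 5.24 times as high in library 1 (4.43 to 6.23) and 7.67 times in library 2 (6.11 to 9.75). The level of ABCB1 was 2.06 times that of ABCG2 in library 1 (1.70 to 2.50) and 3.08 times in library 2 (2.40 to 3.99). With coding bases of the canonical transcript it was 1.21 times (0.999 to 1.47, which includes 1) and 1.81 times (1.41 to 2.34). These are exact Clopper-Pearson intervals of the share of counts and cover counting error only, since reads without molecular identifiers are not independent molecules. With 2 libraries an exact two-sided test of a paired difference cannot give a p below 0.5, so no test across libraries was made. Of the summed level per length of the 3 pumps, ABCC1 held 63.1% and 65.3%, ABCB1 24.8% and 26.2% and ABCG2 12.0% and 8.51% in libraries 1 and 2. None of the exon bases of the 3 pump genes overlapped exons of another gene in GENCODE release 44.

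Of the 3 carbonyl reductases, CBR1 made up nearly all of the summed level per length, 94.03% in library 1 and 89.2% in library 2. CBR1 (ENSG00000159228), a cytosolic short-chain dehydrogenase that reduces doxorubicin and daunorubicin to their alcohols, spans bases 36069941 to 36073166 of chromosome 21 (plus strand). It had 236 and 164 counts and levels per length of 4.49 and 4.70, with a mean of 4.59 ± 0.148 (SD, n = 2), at rank 6982. The libraries were close to each other, with a coefficient of variation of 3.21%. CBR3 (ENSG00000159231), a related reductase with the same number of coding bases (831), lies 61912 bases beyond the end of CBR1 on the same strand, at bases 36135079 to 36146562. It had 1 count in library 1 and 3 counts in library 2, with exact Poisson intervals of 0.0253 to 5.57 and 0.619 to 8.77 counts.

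CBR1 and CBR3 could not be compared on equal terms. Over both libraries 400 counts of CBR1 stood against 4 of CBR3, a ratio of levels per length of 40.7 with a counting interval of 15.8 to 150.2, and the ratio was 96.1 in library 1 (17.1 to 3813) and 22.3 in library 2 (7.49 to 109.1). Exons of the antisense gene CBR3-AS1 cover 710 of the 998 exon bases of CBR3, or 71.1%. CBR3-AS1 itself had 8 and 2 counts. The strand setting of the counting is not given in the sources used here, and reads from a stretch shared by both strands may have gone to neither gene, so the count of CBR3 is uncertain. The part of this overlap in the low count of CBR3 was not tested. For CBR1, the antisense gene CBR1-AS1 shares 18.9% of its exon bases and had 0 and 1 counts.

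AKR1C3 (ENSG00000196139), an aldo-keto reductase known for steroid and prostaglandin metabolism that also reduces anthracyclines, spans bases 5035354 to 5107686 of chromosome 10 (plus strand). It had 20 counts in each library, each with an exact Poisson interval of 12.2 to 30.9. Its levels per length were 0.238 and 0.359, with a mean of 0.299 ± 0.0853 (SD, n = 2), at rank 13042, above 34.4% of protein-coding genes. Its close relatives were no higher, with 10 and 7 counts of AKR1C1, 3 and 3 of AKR1C2 and 2 and 5 of AKR1C4. The level per length of AKR1C3 was 3.13 times that of AKR1C1 and AKR1C2 together in library 1 (95% counting interval 1.48 to 6.85) and 3.96 times in library 2 (1.77 to 9.47). This rests on the length used, since with coding bases it was 1.54 (0.728 to 3.37) and 2.0 (0.894 to 4.78), intervals that include 1, and with the longest transcript 5.78 and 7.11. These genes are near-identical in parts, and the handling of reads that map to more than 1 gene is not given in the sources used here, so their split is uncertain.

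The flavin reductases were the highest of the 8 genes. NQO1 (ENSG00000181019), a cytosolic flavoprotein and a classical target of the transcription factor NFE2L2, spans bases 69706996 to 69726668 of chromosome 16 (minus strand). It had 2174 and 1421 counts and levels per length of 34.1 and 33.6, with a mean of 33.8 ± 0.378 (SD, n = 2), at rank 1231 and above 93.8% of protein-coding genes. POR (ENSG00000127948), the membrane-bound flavoprotein that passes electrons from NADPH to cytochrome P450 enzymes and can reduce doxorubicin to its semiquinone, spans bases 75899200 to 75986855 of chromosome 7 (plus strand). Its 1447 and 978 counts gave 10.8 and 11.03, with a mean of 10.9 ± 0.137 (SD, n = 2), at rank 3944. With total-count scaling, coefficients of variation were 1.12% for NQO1 and 1.25% for POR, against up to 28.6% for AKR1C3 among the 7 genes that reached 10 counts in each library. NQO2, a paralog of NQO1 that does not use NADPH efficiently, had 387 and 245 counts. The level per length of NQO1 was 4.59 times that of NQO2 in library 1 (95% counting interval 4.12 to 5.12) and 4.74 times in library 2 (4.13 to 5.45). An antisense lncRNA gene that shares 19.4% of the exon bases of NQO1 had 0 counts in both libraries.

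**Figure D2:**
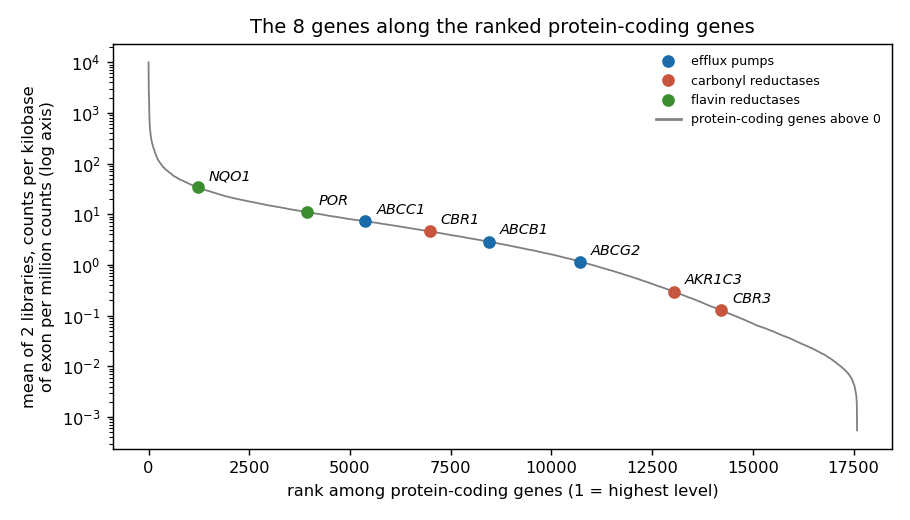
Mean level per length against rank for protein-coding genes above 0 in etoposide-treated cells, with the 8 genes marked by role; the vertical axis is logarithmic. The marked genes run from rank 1231 for NQO1 to rank 14211 for CBR3.

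The length chosen for each gene moved its level but not the order of the 8 genes. All annotated exons together are 1.20 to 4.04 times as long as the coding bases of the canonical transcript. For POR, which has 28 annotated transcripts, exon bases numbered 6222 and the longest transcript 3022, and its level rose from 10.9 to 22.5 on the same scale when the longest transcript was used. With coding bases the level was 122.3 for NQO1, 33.5 for POR, 13.8 for ABCC1 and 13.5 for CBR1, and the libraries of ABCC1 and CBR1 then overlapped. For AKR1C3 the level was 0.831 with the longest transcript and 1.21 with coding bases. The coding-base setting was added after seeing the data.

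**Figure D3:**
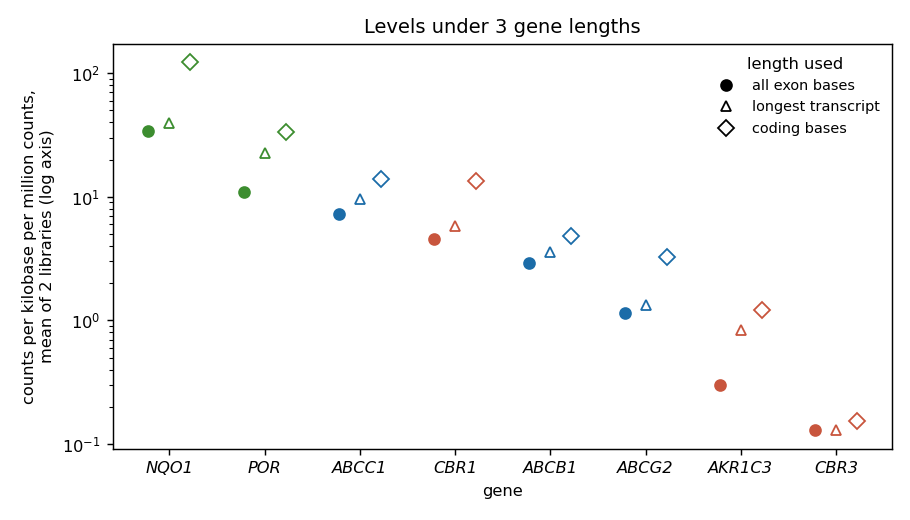
Mean level of each gene over the 2 etoposide libraries under 3 lengths, with filled circles for all exon bases, triangles for the longest transcript and diamonds for the coding bases of the canonical transcript; the vertical axis is logarithmic. The genes keep their order from left to right, and ABCC1 and CBR1 come closest together with coding bases.

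How well each gene repeated was asked by an exact two-sided binomial test of its split of counts between the libraries against their totals, with Benjamini-Hochberg adjustment over the 21057 genes whose summed counts reached 10. This test compares the 2 libraries and not conditions. Of all genes tested, 16.1% passed an adjusted p of 0.05. An unadjusted p under 0.05 was found for 27.7%, where counting noise alone is expected to give at most 5% in an exact test. More genes thus differed between the libraries than counting noise alone gives, and they were kept as the 2 samples that the labels list. The test does not tell separate cultures from technical repeats. Of the 7 genes tested here 1 was called, ABCC1, lower in library 1 by 0.20 on the log2 scale (95% counting interval −0.33 to −0.082, adjusted p = 0.0102 in the exact binomial test). With TMM scaling the same gap was −0.16, its adjusted p was 0.0633 in the exact test, and 0 of the 7 genes were called.

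ABCB1, at −0.23 on the log2 scale (−0.46 to −0.0066), had an adjusted p of 0.158 in the exact test. ABCG2 leaned the other way, higher in library 1 by 0.35 on the log2 scale with an interval of −0.051 to 0.75. NQO1 at 0.023 (−0.074 to 0.12), POR at −0.025 (−0.14 to 0.093) and CBR1 at −0.066 (−0.36 to 0.23) had intervals that include 0. Which of these was closest depended on the scaling, and with TMM factors the gap was −0.018 for CBR1, 0.023 for POR and 0.071 for NQO1. The interval of AKR1C3 reached from −1.56 to 0.38, so a level 2-fold lower in library 1 lay within its counting error and a level 2-fold higher did not. With total-count scaling, among genes whose counts lay within a factor of 2 of its own, the gap of ABCC1 was larger than that of 81.6%, that of ABCB1 larger than that of 76.6% and that of NQO1 larger than that of 13.2%. With TMM factors these shares were 67.95% for ABCC1, 66.96% for ABCB1 and 35.3% for NQO1, and POR was at 13.9% with total counts and 10.7% with TMM factors.

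**Figure D4:**
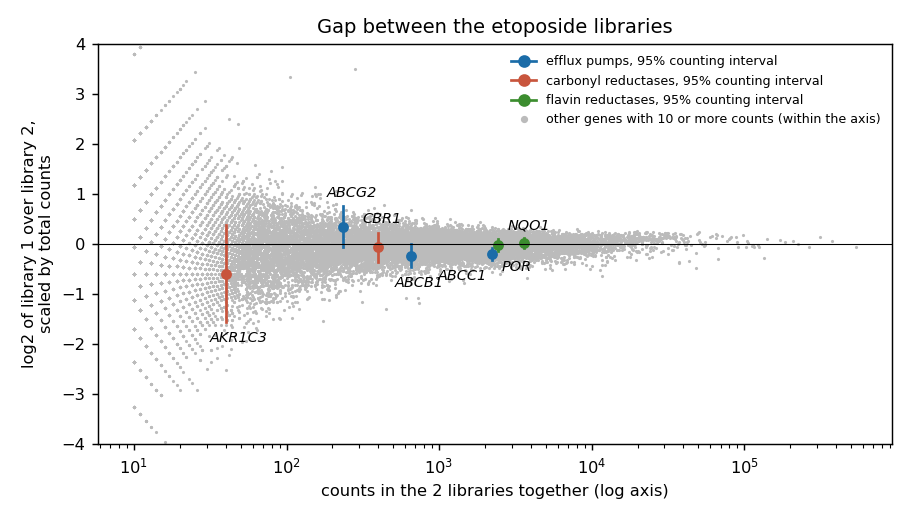
Log2 ratio of library 1 to library 2, scaled by total counts, against the counts of both libraries together for genes with at least 10 counts; coloured points are the 7 genes tested with their 95% counting intervals, and grey points, drawn with 0.5 added to each count, are other genes within the axis. The interval of ABCC1 lies wholly below 0, that of ABCB1 ends just below it, and those of the other 5 genes cross 0.

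Genes with related roles were listed to show the setting of the 8 genes. Of 68 such genes matched, 51 had at least 10 counts in both libraries, beside 68.9% of protein-coding genes. At a level per length of at least 1 in both there were 42, beside 54.4% of protein-coding genes. The share of 68.9% is the background for each list below, and the lists are short. Except in the ratios above, levels of the listed genes were computed with exon bases only. Their order against the 8 genes rests on that length. Other efflux transporters had 8 of 10 genes with at least 10 counts in both libraries, led by ABCC5, a nucleotide analogue exporter, at 10.04 ± 1.13 and ABCC3, an exporter of organic anions and glucuronides, at 4.70 ± 0.218 (SD, n = 2). The level of ABCC5 was thus above that of ABCC1, and ABCB5 was the lowest at 0 and 1 counts. Of the uptake carriers 6 of 11 genes reached 10 counts in both libraries, against 68.9% of protein-coding genes, and their median level was 0.175. SLC22A4, a carnitine and ergothioneine carrier, was the highest at 4.34 ± 0.759 (SD, n = 2), followed by SLCO1B3, an organic anion carrier, at 1.62 ± 0.0747. Exons of a read-through gene, which had 3 and 1 counts, cover 54.5% of the exon bases of SLCO1B3. SLC22A16, a carnitine carrier that also takes up doxorubicin, had 0 and 1 counts, and SLC22A3 and SLC28A1 had 0 in both libraries, for which the exact Poisson upper limit is 3.69 counts in each.

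Carbonyl reductases outside the 8 genes reached higher levels per length than CBR1. DCXR, a dicarbonyl and xylulose reductase, stood at 53.6 ± 5.74, and AKR1B1, aldose reductase, at 44.3 ± 2.71 (SD, n = 2). Of the 10 genes of this list 6 had at least 10 counts in both libraries, a share near that of protein-coding genes (68.9%), and the 4 others were AKR1B10, AKR1C1, AKR1C2 and AKR1C4. All 10 other quinone reductases and diflavin enzymes had at least 10 counts in both libraries. TXNRD1, thioredoxin reductase, led them at 37.6 ± 1.46, close to NQO1, with CYB5R3, cytochrome b5 reductase, at 22.2 ± 0.429 (SD, n = 2) and NOS1 the lowest at 0.555 ± 0.0350.

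NADPH is the electron donor of CBR1, AKR1C3 and POR and one of the donors of NQO1. Of the genes listed for its supply, direct or indirect, 8 of 8 reported here had at least 10 counts in both libraries, beside 68.9% of protein-coding genes. PGD, an NADPH-producing enzyme of the pentose phosphate pathway, was at 65.6 ± 0.461 and TALDO1, transaldolase of the same pathway, at 39.6 ± 1.71 (SD, n = 2). With exon bases both were above the level of NQO1. TALDO1 has 2907 exon bases and 1011 coding bases and NQO1 2971 and 822, so the order of these 2 genes rests on the length used. The lowest of the list, malic enzyme ME1, was at 7.97 ± 0.0915. NADK, NAD kinase, is the 1 related gene that all 6 libraries list, and it was not compared between groups here because none of the 8 genes is listed with it. Of the redox defence genes 8 of 8 matched genes had at least 10 counts in both libraries, with GPX1 at 250.8 ± 22.2, SOD1 at 170.1 ± 19.4 and SRXN1 the lowest at 6.75 ± 1.13 (SD, n = 2). Exons of another protein-coding gene on the same strand, with 3 and 1 counts, cover 90.7% of the exon bases of SRXN1, so its level is uncertain. Exons of another cover 39.9% of GPX1, but that gene was not among the genes counted. The SOD2 identifier of GENCODE release 44 was not matched and its counts were not used here.

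Of 6 regulators 4, and of 5 conjugating enzymes 1, had at least 10 counts in both libraries, beside 68.9% of protein-coding genes. MAFG, a small MAF partner of NFE2L2, stood at 32.0 ± 0.401 and KEAP1, which marks NFE2L2 for degradation, at 22.6 ± 1.05 (SD, n = 2). NFE2L2 itself had 1382 and 883 counts and a level of 4.22 ± 0.115 (SD, n = 2), above 63.5% of protein-coding genes. It has 14975 exon bases, but 5104 in its longest transcript and 1815 coding bases, against 3573, 2648 and 1872 for KEAP1. The level of NFE2L2, its place among protein-coding genes and the size of its gap to KEAP1 thus rest on the length used. Exons of HNRNPA3 on the opposite strand share 23.4% of the exon bases of NFE2L2. AHR, the aryl hydrocarbon receptor, which like NFE2L2 can activate NQO1, was listed at 0 in both libraries. Exons of a same-strand gene, also at 0, cover 29.5% of its exon bases, and the rest are not shared with it. Whether the 0 of AHR reflects absent RNA or the counting was not tested, so it is uncertain. The conjugating enzyme that reached 10 counts was GSTP1, glutathione transferase pi, at 405.6 ± 33.6 (SD, n = 2), above 99.8% of protein-coding genes. UGT2B7, a glucuronosyltransferase, had 0 and 3 counts, and GSTA1 and UGT1A1 had 0 in both. Exons of other UGT1A genes overlap those of UGT1A1, so its 0 is uncertain.

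**Figure D5:**
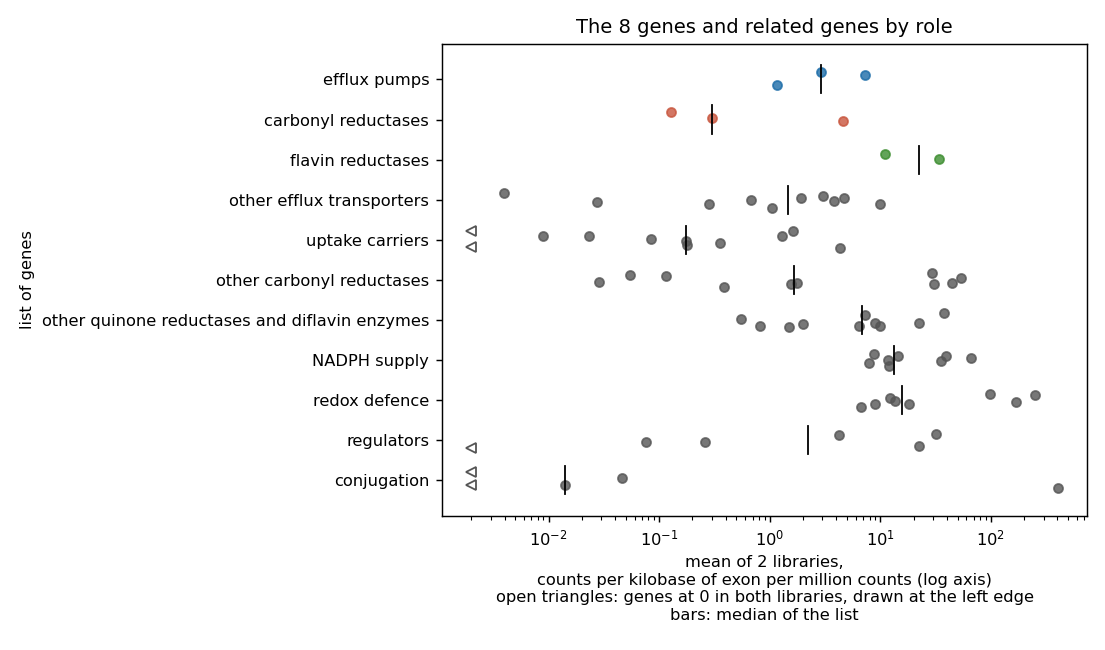
Mean level per length over the 2 etoposide libraries for the 8 genes, coloured by role, and for 68 related genes in grey, with 1 row per list, a bar at the median and open triangles at the left edge for the 5 genes at 0 in both libraries; the horizontal axis is logarithmic. The lists of NADPH supply and redox defence hold no gene below 6.75, while uptake carriers, regulators and conjugating enzymes reach down to 0.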

How the data were processed

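RNA-Seq counts of U2OS cells were analysed in the 2 etoposide libraries. The authors aligned reads to GRCh38 with HISAT2 2.1.0 and deposited raw counts per Ensembl gene from featureCounts of Subread 2.0.0, without normalization. Files of the 4 other libraries were read for their gene identifiers only, and the incomplete last line of each was left out. Symbols, exon lengths and coordinates are from GENCODE release 44, which matched 60357 of 67140 identifiers. Levels are counts per kilobase of exon scaled to the library's total counts (RPKM), with mean and SD over n = 2. The gap between libraries was tested by exact binomial tests with Benjamini-Hochberg adjustment, in Python 3.11.15 with scipy 1.17.1, numpy 2.4.6 and pandas 2.3.3. TMM and upper-quartile factors came from edgeR 4.0.16 and median-of-ratios factors from DESeq2 1.42.0 (R 4.3.3). On simulated data for this gap, with 20496 genes tested, 97% of 200 genes changed by 2-fold were called in the right direction and 8 unchanged genes were called. The simulated counts held counting noise only, and the changed genes were drawn from genes with many counts. These figures check the code and do not describe the test on the real libraries, which differed by more than counting noise. The members and lists were chosen with earlier results of these data known. Named were the 8 genes, their close relatives and, of each related list, the 2 highest genes and the lowest, and others named were chosen after their values were seen. With values in 1 condition, no genes could be named for a like pattern over conditions. Some of the related genes planned are not reported here.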

Additional observations from a re-analysis of the deposited data

How the results depend on the processing

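No paired analysis was possible because the 8 genes had values in the etoposide group only. The order of the 8 genes was the same with the longest transcript, with coding bases (added after seeing the data), with TPM, without mitochondrial genes and with each library alone, although with coding bases 6 of the 7 neighbouring pairs were apart. With the longest transcript, the ratio of levels per length of AKR1C3 to AKR1C1 and AKR1C2 was 6.38 in place of 3.50, that of NQO1 to NQO2 3.39 in place of 4.64 and that of ABCC1 to ABCB1 2.71 in place of 2.52. With coding bases, the ratio was 100.0 for CBR1 to CBR3 in place of 40.7, 1.74 for AKR1C3 to its relatives, 4.80 for NQO1 to NQO2, 2.87 for ABCC1 to ABCB1 and 4.05 for ABCC1 to ABCG2 in place of 6.08. Leaving out 1 library moved the ratio of CBR1 to CBR3 from 22.3 without replicate 1 to 96.1 without replicate 2, since 1 and 3 counts decide it. The call of ABCC1 between the libraries was lost, so that 0 of the 7 genes tested were called, with TMM factors, median of ratios, upper-quartile scaling (adjusted p of 0.0534 to 0.0633 in the exact test) and at an adjusted p under 0.01, where 2095 genes in place of 3385 were called. Over all settings its adjusted p ran from 0.00872 to 0.0633 in the exact test. Of the called genes, 1276 were higher in library 1 and 2109 in library 2, but 2045 and 1526 with TMM factors. A protein table for coding lengths was not used here, so the planned setting on protein length was not run. Counting error was widest for CBR3 and AKR1C3, which had the lowest counts of the 8 genes. The parts of depth, of the CBR3-AS1 overlap and of reads shared among relatives of AKR1C3 were not tested.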
